A study of Mus musculus with 8 samples.

Results

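The 6 genes described here, *Tbx20*, *Tbx5*, *Tbx2*, *Tbx3*, *Tbx1* and *Tbx18*, encode the T-box transcription factors best known from the developing heart. They were taken by name, whatever their values, from the 49315 genes listed in the count tables, and all 6 were among the 17163 genes with enough reads to be tested. RNA was measured by poly-A-selected RNA-seq in whole mouse hearts at embryonic day 9.5, in 4 wild-type libraries and 4 libraries from embryos homozygous for Tbx20EH1Mut. By the study's methods each library came from a separate pool of hearts, the line was made by Cas9 editing of C57BL/6J embryos and back-crossed, and the allele alters every cell that makes Tbx20, so its effects on the heart muscle cannot be told apart from effects on other tissues. A library is the replicate throughout, and its number (replicate 1 to 4) is only a name.

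T-box proteins share a DNA-binding domain, the T-box, and bind short DNA elements related to AGGTGTGA. In the heart, *Tbx5* and *Tbx20* are known for their part in chamber muscle, *Tbx2* and *Tbx3* as repressors that keep the atrioventricular canal and, later, the conduction system from taking on chamber character, *Tbx1* for the pharyngeal mesoderm and endoderm that feed the outflow tract, and *Tbx18* for the proepicardium, epicardium and sinus horns. Several of them can bind the same elements, so the balance between them is of interest as well as each level. Tbx20 can activate or repress, and its EH1 motif, a short stretch near the start of the protein, binds the TLE (Groucho-related) corepressors.

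The allele replaces 2 neighbouring residues of that motif, F18L and S19I, counted from the first methionine. The stretch of the *Tbx20* coding sequence around them is shown because it is the only part of the genome that the mutation was made to alter. It lies in coding exon 1 at chr9:24773756-24773815 (GRCm38, minus strand), and the capitals mark the 2 codons as they read in the reference:
*Tbx20*: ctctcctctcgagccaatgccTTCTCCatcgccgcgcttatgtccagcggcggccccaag
A change of 2 codons leaves no trace in a count per gene, so the genotype labels could not be checked from these tables.

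An EH1 match, F-x-[IV]-x-x-[IL]-[ILM] in residues, was searched in the translated coding transcripts of GENCODE M21. It was found within the first 100 residues of 552 of 21546 coding genes (2.56%), and of 4 of the 17 T-box genes. Among the 6 cardiac genes only *Tbx20* and *Tbx18* held it, and no match lay anywhere in the coding sequence of *Tbx5*, *Tbx2*, *Tbx3* or *Tbx1*. The coding bases of the 4 matches are set side by side to show how far they are alike, with the codons of the 4 fixed positions in capitals:
*Tbx20* (chr9:24773774-24773794, minus strand, residues 18 to 24): TTCtccATCgccgcgCTTATG
*Tbx18* (chr9:87730767-87730787, minus strand, residues 20 to 26): TTCtctGTGgaggcaCTGATC
*Tbx15* (chr3:99253932-99253952, plus strand, residues 18 to 24): TTCtccGTTgaagccTTGATC
*Tbx22* (chrX:107676890-107676910, plus strand, residues 24 to 30): TTCtccGTGgaggccTTAATG
A match of this pattern is a description of the letters and not evidence that TLE proteins bind there. *Tbx15* and *Tbx22* were close to silent in these hearts, with at most 17 and 2 counts in a library, so that *Tbx20* and *Tbx18* were the matching T-box genes with messages at an appreciable level.

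The tables held 33359322 to 49523086 counts in total for the wild-type libraries and 36250675 to 38357025 for the Tbx20EH1Mut libraries. Cardiomyocyte markers were abundant in all 8, at a summed 28897 to 34280 CPM in wild-type and 27632 to 39040 CPM in Tbx20EH1Mut libraries, where CPM stands for counts per 1000000 of a library size scaled by TMM. Wild-type replicate 1 stood apart from its group on the first principal component (-13.7, against -69.6 to -57.0 for the other wild-type and 25.9 to 88.5 for the Tbx20EH1Mut libraries), and without it 6586 genes were called in place of the 5024 given next. Where its removal changed the log2 difference of 1 of the 6 genes by more than 1.5-fold or turned its sign, the new difference is given as well. A gene was called where the adjusted p of edgeR's quasi-likelihood test did not exceed 0.05. Over all genes 5024 were called, 2406 higher and 2618 lower in Tbx20EH1Mut hearts, and with upper-quartile scaling the split was 2859 higher and 1997 lower.

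*Tbx5* and *Tbx20* were lower in Tbx20EH1Mut hearts, while *Tbx2*, *Tbx3*, *Tbx1* and *Tbx18* did not pass the test. Thus 2 of the 6 genes were called, both lower, against 29.3% of all genes tested called in either direction and 15.3% called lower. The same 2 were the genes whose libraries did not overlap between the genotypes, which was so for 30.5% of all genes. Only *Tbx5* also passed the further threshold of 0.5 in absolute log2 fold change given in the study's methods, as did 24.6% of all genes. The study's results used 2 higher thresholds, and *Tbx5* did not reach the one behind its main set of genes. It passed the other, used for the overlap with published Tbx20 binding. The study names *Tbx5* among the lower genes of that overlap. The median log2 fold change of the 6 was -0.27, beside 0.0048 over all genes tested. A share of 2 in 6 is close to the background and sets the T-box genes no further apart than other genes, so they are described singly. In whole-heart RNA, fewer cells of a type and less message per cell cannot be told apart.

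**Figure D1:**
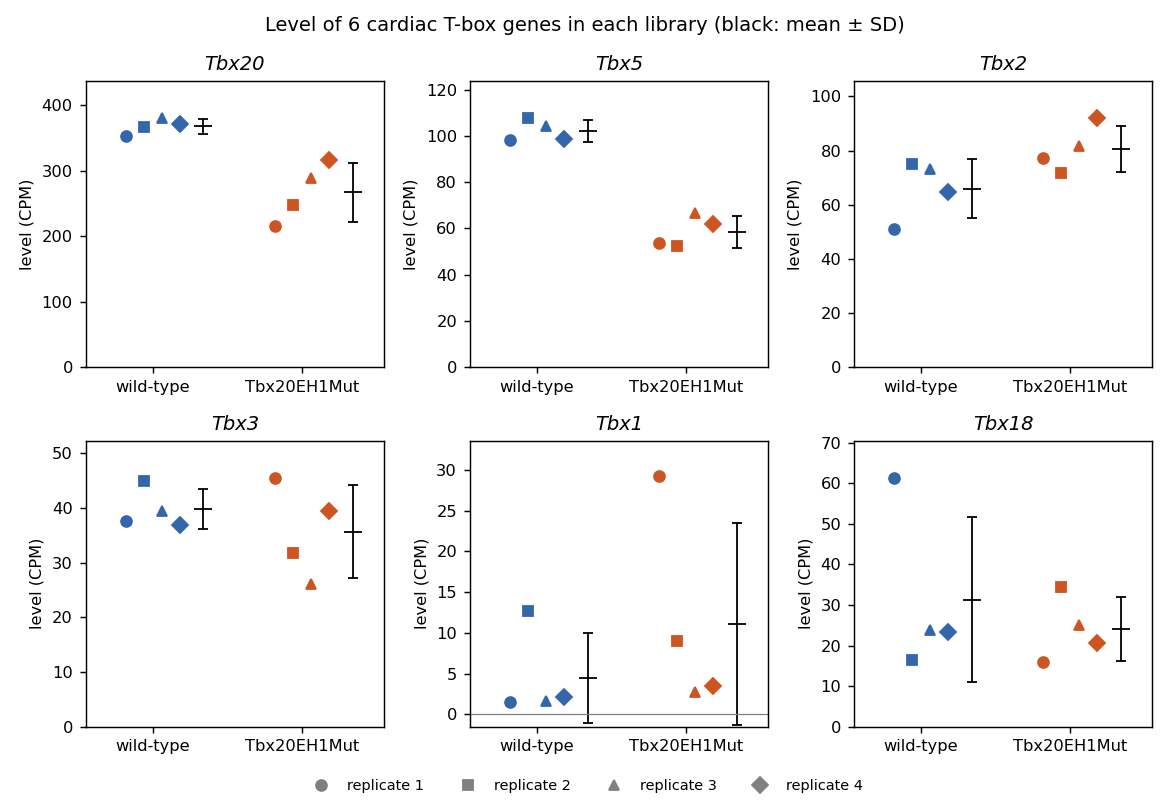
Level of each of the 6 genes in CPM (y axis) in the 4 wild-type (blue) and 4 Tbx20EH1Mut (orange) libraries. Symbols mark the replicate number and black marks the mean and SD of a group. For *Tbx20* and *Tbx5* every Tbx20EH1Mut library lay below every wild-type library, while single libraries at 61.3 CPM (*Tbx18*, wild-type replicate 1) and at 12.7 and 29.2 CPM (*Tbx1*, wild-type replicate 2 and Tbx20EH1Mut replicate 1) stood above the rest.

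*Tbx5* (chr5:119832668-119885219, plus strand), whose product drives chamber genes together with Nkx2-5 and Gata4, had the clearest difference of the 6. In wild-type replicates 1 to 4 it was measured at 98.1, 108, 104 and 98.6 CPM, and in Tbx20EH1Mut replicates 1 to 4 at 53.5, 52.3, 66.9 and 61.9 CPM. The wild-type libraries lay within a narrow range, all 4 Tbx20EH1Mut libraries lay below it, and the gap between the groups was wider than the spread within either. The log2 fold change was -0.80 (standard error 0.110, 95% interval -1.04 to -0.56), a fall to 0.574 of the wild-type level, with an adjusted p of 0.000992 (edgeR, Benjamini-Hochberg). The call held under each alternative tried. The lincRNA gene Gm43050, which starts 748 bases from *Tbx5* on the other strand, had 7.62 ± 1.04 CPM in the wild-type group and 8.76 ± 0.890 CPM in the Tbx20EH1Mut group (SD, n = 4 each), a log2 difference of 0.20 with an adjusted p of 0.355 from edgeR.

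*Tbx20* (chr9:24718138-24774303, minus strand) is itself the altered gene. Its libraries gave 353, 366, 380 and 372 CPM for wild-type replicates 1 to 4 and 215, 247, 289 and 317 CPM for Tbx20EH1Mut replicates 1 to 4. The wild-type hearts were again close together, with a coefficient of variation of 3.03%, whereas the Tbx20EH1Mut libraries spread over 1.47-fold (16.8%), all of them below the lowest wild-type library. The fitted level with the altered allele was 0.726 of the wild-type one, or -0.46 on the log2 scale (standard error 0.133, 95% interval -0.76 to -0.17, adjusted p = 0.0273 by edgeR). The message of the altered gene was therefore still abundant, and the tables do not show which share of the reads carried the altered codons. The call was a narrow one. By edgeR, the adjusted p was 0.0608 with upper-quartile scaling, and it was 0.0726 without wild-type replicate 3, 0.0712 without wild-type replicate 4, 0.0630 without Tbx20EH1Mut replicate 1 and 0.0662 without Tbx20EH1Mut replicate 2, with the direction kept in each.

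*Tbx2* (chr11:85832551-85841948, plus strand), a repressor of chamber genes in the atrioventricular canal and outflow tract, was measured at 51.0, 75.0, 73.2 and 64.5 CPM over wild-type replicates 1 to 4 and at 77.3, 71.7, 81.5 and 91.9 CPM over Tbx20EH1Mut replicates 1 to 4. In all, 3 of the Tbx20EH1Mut libraries lay above all wild-type libraries and the other lay within their range. The log2 difference of 0.29 (standard error 0.140) had a 95% interval from -0.02 to 0.60, that is from 0.986-fold to 1.52-fold, and an adjusted p of 0.139 from edgeR. The interval holds both no difference and a rise to 1.52-fold. Without wild-type replicate 1, which had the lowest level of all 8, the log2 difference was 0.18 (adjusted p = 0.258 by edgeR). Over the alternatives with all 8 libraries the adjusted p ran from 0.0514 with upper-quartile scaling to 0.287 with total counts. The transcript 2610027K06Rik, which starts 328 bases from *Tbx2* on the opposite strand, had 4.21 ± 0.318 CPM in the wild-type group and 5.73 ± 0.711 CPM in the Tbx20EH1Mut group (SD, n = 4 each) with no overlap between the groups, and its log2 difference of 0.44 had an adjusted p of 0.0757 from edgeR.

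*Tbx3* (chr5:119670669-119684724, plus strand), the closest relative of *Tbx2*, was at 37.7, 44.95, 39.5 and 36.9 CPM over wild-type replicates 1 to 4. In Tbx20EH1Mut replicates 1 to 4 it was at 45.5, 31.7, 26.1 and 39.4 CPM, so the highest and the lowest library of all 8 were both Tbx20EH1Mut. The log2 difference was -0.16 (standard error 0.167, 95% interval -0.53 to 0.21, adjusted p = 0.50 by edgeR). Single libraries set its size: it was -0.02 without Tbx20EH1Mut replicate 3, -0.08 without wild-type replicate 2 and -0.29 without Tbx20EH1Mut replicate 1, and it was not called in any of these. The antisense gene Tbx3os1 shares 115 exon bases (1.74%) with *Tbx3* and had 801 counts over the 8 libraries against 12391 for *Tbx3*, and since the strand setting of the counting was not given, reads in the shared stretch could have gone to either.

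**Figure D2:**
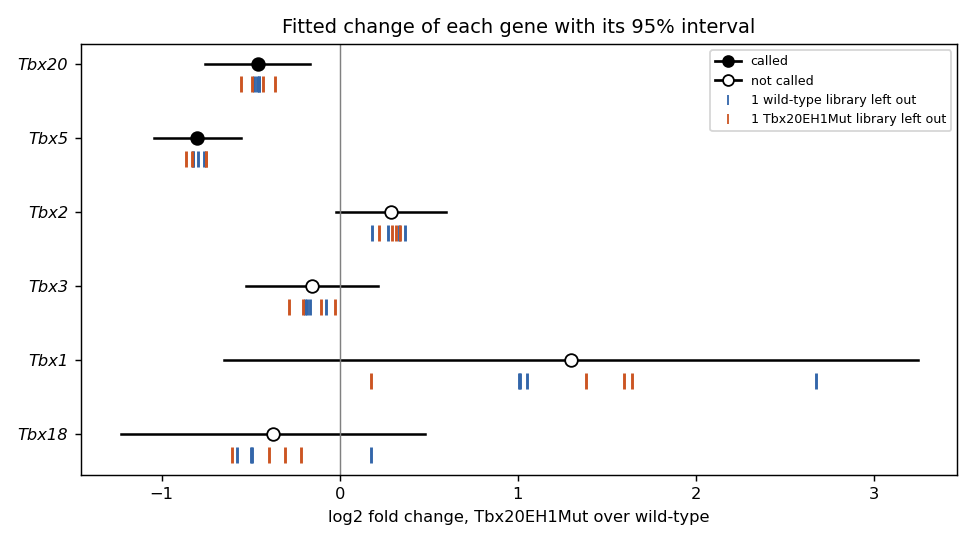
Log2 fold change of each gene, Tbx20EH1Mut over wild-type (x axis), with its 95% interval from edgeR's quasi-likelihood fit. Filled circles mark called genes (adjusted p up to 0.05), and ticks below each line show the estimate with 1 library left out. The ticks of *Tbx5* stay between -0.86 and -0.75, while those of *Tbx1* run from 0.18 to 2.67 and those of *Tbx18* cross 0.

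*Tbx1* (chr16:18581713-18586969, minus strand), a gene of the pharynx and of the outflow tract progenitors, had the largest fold difference of the 6 and the widest interval. It was measured at 1.49, 12.7, 1.67 and 2.09 CPM over wild-type replicates 1 to 4 and at 29.2, 9.0, 2.72 and 3.45 CPM over Tbx20EH1Mut replicates 1 to 4, from 49 to 624 and 87 to 1128 counts. The gene model counted has 1777 exon bases, while the longest coding transcript of GENCODE M21 has 2511, so part of the message was not counted. Within each genotype 1 or 2 libraries exceeded the others several times over: the highest was 8.55-fold above the lowest in wild-type hearts and 10.7-fold in Tbx20EH1Mut hearts, and the groups overlapped. The log2 difference was 1.30 (standard error 0.876, 95% interval -0.65 to 3.25, adjusted p = 0.280 by edgeR). It was 2.67 without wild-type replicate 2, with an adjusted p of 0.0390 by edgeR, and 0.18 without Tbx20EH1Mut replicate 1, with an adjusted p of 0.884 by edgeR. With both left out, an alternative chosen after seeing the data, it was 1.545 with an adjusted p of 0.0520 by edgeR.

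The libraries of highest *Tbx1* also stood out in markers of foregut epithelium, a tissue that lies against the heart. The 8 markers (Foxa1, Foxa2, Shh, Epcam, Cdh1, Sox2, Nkx2-1 and Cldn6) summed to 3.25, 61.5, 1.16 and 11.5 CPM over wild-type replicates 1 to 4 and to 206, 173, 32.7 and 93.6 CPM over Tbx20EH1Mut replicates 1 to 4. Tbx20EH1Mut replicate 4 thus had more of the markers than wild-type replicate 2 but less *Tbx1*, at 3.45 against 12.7 CPM. Wild-type replicate 2 and Tbx20EH1Mut replicates 1 and 2 thus had the highest level in their genotype of both *Tbx1* and these markers. All 8 markers passed the filter on low counts, and 3 were called higher in Tbx20EH1Mut hearts. The summed level was 1.16 to 61.5 CPM in the wild-type and 32.7 to 206 CPM in the Tbx20EH1Mut group. The 6 markers of pharyngeal mesoderm, 4 of them tested and 1 of those called higher, did not follow *Tbx1* in this way: they summed to 59.9 CPM in wild-type replicate 2 and to 68.3 to 109 CPM in the other wild-type libraries, and to 91.8 to 134 CPM in the Tbx20EH1Mut libraries, highest in replicate 3. The part of these markers' tissue in the level of *Tbx1* was not tested.

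*Tbx18* (chr9:87702800-87731260, minus strand), which marks the proepicardium and the sinus horns, was measured at 61.3, 16.5, 23.8 and 23.4 CPM over wild-type replicates 1 to 4 and at 16.0, 34.5, 25.1 and 20.6 CPM over Tbx20EH1Mut replicates 1 to 4. Apart from the first wild-type library the groups covered much the same range. The log2 difference was -0.38 (standard error 0.385, 95% interval -1.23 to 0.48, adjusted p = 0.480 by edgeR), and without wild-type replicate 1 its sign turned, to 0.17 with an adjusted p of 0.604. It was -0.58 without wild-type replicate 2, -0.60 without Tbx20EH1Mut replicate 2 and -0.22 without Tbx20EH1Mut replicate 1, and it was not called in any of these. Markers of proepicardium and epicardium were also highest in that library among the wild-type ones, at a summed 126 CPM for 7 markers against 48.7 to 66.2 CPM in the other 3. In Tbx20EH1Mut hearts the markers summed to 112 to 142 CPM. *Wt1* was the largest part of that sum in each library, at 56.9 to 86.8 CPM in Tbx20EH1Mut and 17.3 to 36.8 CPM in wild-type libraries. Without *Wt1* the other 6 markers summed to 89.3 CPM in wild-type replicate 1 and to 31.3 to 41.7 CPM in the other wild-type libraries. In Tbx20EH1Mut replicates 1 to 4 they summed to 69.2, 55.4, 31.8 and 35.5 CPM. Wild-type replicate 1 was thus the highest of all 8 in these markers as in *Tbx18*. Tbx20EH1Mut replicate 1, however, had 69.2 CPM of these markers and the lowest *Tbx18* of all 8, at 16.0 CPM. All 7 markers passed the filter on low counts, 2 of them were called higher, and their part in the level of *Tbx18* was not tested. The gene model D030062O11Rik on the other strand shares 970 exon bases (20.56%) with *Tbx18*, with 159 counts over the 8 libraries against 8596 for *Tbx18*.

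**Figure D3:**
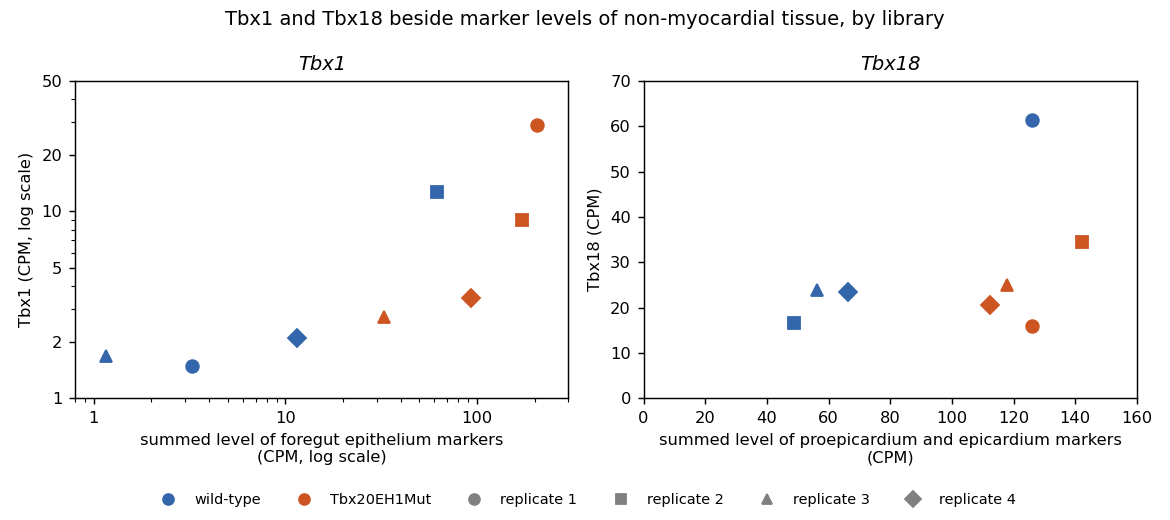
Level of *Tbx1* (left, both axes on a log scale) and *Tbx18* (right) in CPM against the summed CPM of foregut epithelium markers and of proepicardium and epicardium markers in the same library. Blue marks wild-type and orange Tbx20EH1Mut libraries, and symbols mark the replicate number. The 3 libraries with 9.0 to 29.2 CPM of *Tbx1* have 61.5 to 206 CPM of the foregut markers. Tbx20EH1Mut replicate 4 has 93.6 CPM of these markers and 3.45 CPM of *Tbx1*. *Tbx18* is at 61.3 CPM in the wild-type library with 126 CPM of the proepicardial markers. It is at 16.0 to 34.5 CPM in the Tbx20EH1Mut libraries, where the markers sum to 112 to 142 CPM with *Wt1* as the largest single part.

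Levels of different genes were compared per length, as TPM (counts per exon base, set to a sum of 1000000 in each library) over the exon bases listed in the tables (11997 for *Tbx20*, 4675 for *Tbx5*, 3626 for *Tbx2*, 6624 for *Tbx3*, 1777 for *Tbx1* and 4718 for *Tbx18*). In wild-type hearts *Tbx20* came first at 78.9 ± 12.3 TPM, followed by *Tbx5* at 56.5 ± 10.8, *Tbx2* at 47.4 ± 13.7, *Tbx18* at 16.1 ± 8.47, *Tbx3* at 15.6 ± 3.81 and *Tbx1* at 7.36 ± 9.98 (SD, n = 4 each). *Tbx20* exceeded *Tbx5*, and *Tbx5* exceeded *Tbx2*, in all 4 libraries, although the ranges of neighbours over libraries overlapped. Between *Tbx2* and *Tbx18* the ranges were apart, and *Tbx18*, *Tbx3* and *Tbx1* could not be ordered beyond their spread. In Tbx20EH1Mut hearts *Tbx2*, at 48.0 ± 5.58 TPM, stood level with *Tbx20* at 47.8 ± 6.44, and *Tbx5* followed at 26.9 ± 1.02 with no overlap with *Tbx20*. *Tbx1*, *Tbx3* and *Tbx18* were at 14.4 ± 16.7, 11.8 ± 3.70 and 11.1 ± 4.13 TPM, and their ranges overlapped. The *Tbx20* length covers every exon of the gene, while its longest coding transcript has 9091 bases, so the place of *Tbx20* in the order depends on which transcript was made, but a change in a ratio between genotypes does not depend on a length.

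Within single libraries, the levels of *Tbx5* and *Tbx20* relative to *Tbx2* were lower in all 4 Tbx20EH1Mut libraries than in any wild-type library, although no ratio passed the test after adjustment over the 15 pairs. Ratios were formed within a library, from counts per exon length with 0.5 added to each count, so that no scaling between libraries enters. *Tbx5* stood at 1.49, 1.11, 1.10 and 1.19 times *Tbx2* in wild-type replicates 1 to 4 and at 0.537, 0.566, 0.636 and 0.522 times *Tbx2* in Tbx20EH1Mut replicates 1 to 4. *Tbx5* thus lay above *Tbx2* in every wild-type library and below it in every Tbx20EH1Mut library. The mean log2 ratio moved from 0.28 ± 0.20 to -0.83 ± 0.13 (SD, n = 4 each), a difference of -1.11 with p = 0.0286 in the exact two-sided permutation test.

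*Tbx20* stood at 2.09, 1.47, 1.57 and 1.74 times *Tbx2* in wild-type replicates 1 to 4 and at 0.841, 1.04, 1.07 and 1.04 times *Tbx2* in Tbx20EH1Mut replicates 1 to 4. No Tbx20EH1Mut library reached the lowest wild-type ratio, and the mean log2 ratio differed by -0.78 (exact permutation p = 0.0286). *Tbx20* stood at 1.403, 1.32, 1.42 and 1.47 times *Tbx5* in wild-type and at 1.56, 1.84, 1.68 and 1.99 times *Tbx5* in Tbx20EH1Mut replicates 1 to 4. The last ratio also parted the groups, with a log2 difference of 0.33 (exact permutation p = 0.0286), the ratio being higher in the Tbx20EH1Mut libraries. The value 0.0286 is the smallest that 4 against 4 libraries allow. Over the 15 pairs of the 6 genes it came to an adjusted p of 0.143 (exact permutation tests, Benjamini-Hochberg), so no pair passed a threshold of 0.05 after adjustment, and with this design none could at 3 such pairs.

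These were the 3 of 15 pairs whose ratios did not overlap between the genotypes, and among all pairs of the 17163 tested genes the same was so for 28.8%. The count of pairs is thus no larger than the background and says nothing particular of T-box genes, and the ratios are given as a description of their levels. With 1 library left out the number was 5 without wild-type replicate 1, 9 without wild-type replicate 2, 5 without Tbx20EH1Mut replicate 3 and 3 or 4 otherwise. *Tbx2* over *Tbx3*, the paralogous repressors, was at 2.47 to 3.39 in wild-type and 3.10 to 5.71 in Tbx20EH1Mut libraries, a log2 difference of 0.48 (exact permutation p = 0.0857, adjusted p = 0.257). As a share of the summed TPM of the 6 genes, *Tbx5* made up 25.5% ± 0.485 in wild-type and 17.0% ± 2.17 in Tbx20EH1Mut hearts, and *Tbx2* 21.1% ± 3.002 and 30.1% ± 2.41 (SD, n = 4 each). Both shares parted the groups, each with an adjusted p of 0.0857 over the 6 shares (exact permutation tests), and shares of 1 sum are not independent of each other.

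**Figure D4:**
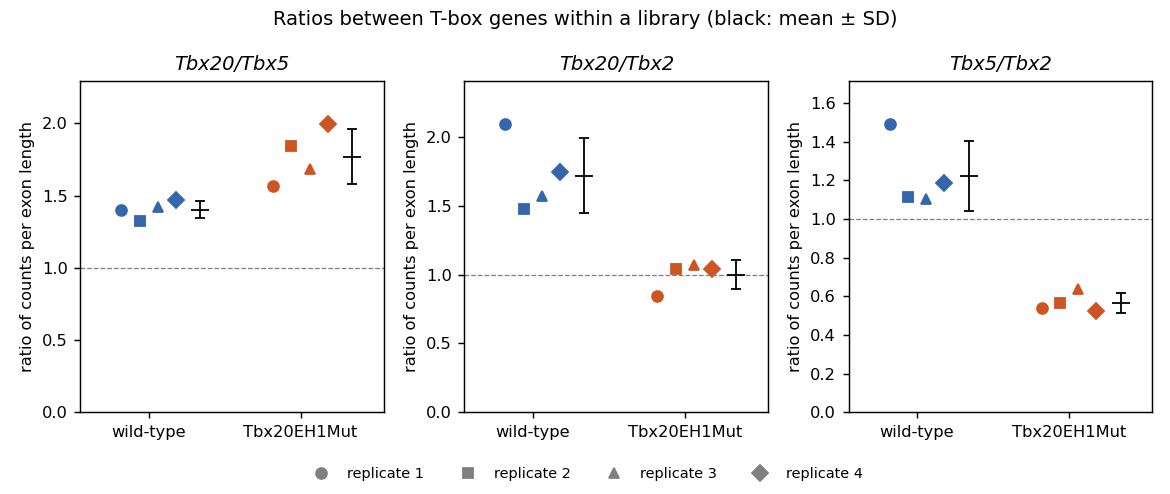
Ratio of *Tbx20* to *Tbx5*, *Tbx20* to *Tbx2* and *Tbx5* to *Tbx2* within each library, from counts per exon length (y axis), in wild-type (blue) and Tbx20EH1Mut (orange) hearts. Black marks the mean and SD, and the dashed line a ratio of 1. The 3 ratios do not overlap between the genotypes, and the ratio of *Tbx5* to *Tbx2* passes from 1.10 to 1.49 in wild-type to 0.522 to 0.636 in Tbx20EH1Mut libraries.

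The longest run of identical bases shared by the longest coding transcripts of any pair of the 6 genes was 21 bases. Their proteins were aligned after translation, with no cost for gaps at the ends, and residues without a partner were left out. The pairs were identical at 41.8% to 49.0% of aligned residues except for *Tbx2* and *Tbx3*, at 68.1%.

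For each gene, the named genes of at least 5 CPM with the most similar course over the 8 libraries were found by the root mean square difference of mean-centred log2 CPM, among 10437 genes. For *Tbx20* they were *Lyn* (0.05), *Sorbs2* (0.09) and *Slmap* (0.09), the latter a pair of genes of muscle membrane and Z-disc proteins. *Sorbs2* had 258 ± 17.4 CPM in the wild-type and 197 ± 32.9 CPM in the Tbx20EH1Mut group (SD, n = 4 each). For *Tbx5* they were *Strn* (0.07), *Ythdc2* (0.08) and *Dna2* (0.08), and for *Tbx2* they were *Lmod1* (0.09), *Amigo1* (0.10) and *Vcpip1* (0.10), of which *Lmod1* encodes a smooth muscle leiomodin. *Tbx3* was followed by *Ss18l1* (0.07), *Mtx3* (0.09) and *Zfp652* (0.12). *Tbx1* had no close match: *Gli1* (0.53), a target of hedgehog signalling, and *B4galnt4* (0.66) were among the nearest, each highest in Tbx20EH1Mut replicate 1 or 2 and, among wild-type libraries, in replicate 2. *Tbx18* was nearest to *Emp1* (0.24), the mesothelial gene *Upk1b* (0.33), itself 1 of the 7 proepicardial markers, and *Apoo* (0.36). These are descriptions over 8 libraries, in which the genotypes themselves make many genes alike.

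Genes that are known to work with, under or beside the T-box factors were examined as lists. Each list's counts stand beside those over all genes tested. There 29.3% were called in either direction, 15.3% were called lower, and 2406 of 17163 were called higher. No list was tested as a set. The 11 other T-box genes were nearly silent: 6 had too few counts to be tested and *Mga*, whose product holds a T-box as well as another DNA-binding domain, was the only one with a mean above 1 CPM, with 49.9 ± 15.3 CPM in the wild-type group and 54.7 ± 0.748 CPM in the Tbx20EH1Mut group (SD, n = 4 each, log2 difference 0.13, adjusted p = 0.601 by edgeR). Of the 5 tested, 1 was called higher and none lower, with a median log2 fold change of 0.13. It was *Tbr1*, a gene of forebrain neurons, at 0.199 ± 0.110 CPM against 0.972 ± 0.411 CPM (log2 fold change 2.26, adjusted p = 0.00968 by edgeR) from 4 to 18 counts in a wild-type and 15 to 54 in a Tbx20EH1Mut library. Neural tube markers, 3 of whose 6 genes could be tested, summed to 1.43 to 10.4 CPM in wild-type and 10.5 to 21.7 CPM in Tbx20EH1Mut hearts. *Sox1*, *Pax3* and *Olig2* were below 0.5 CPM in all libraries. *Sox2*, also a foregut marker, was the largest part in wild-type replicate 2 (6.66 CPM) and Tbx20EH1Mut replicates 1 and 2 (15.2 and 15.5 CPM). *Pax6* was the largest part in the other libraries. The part of neural tube markers in the result for *Tbr1* was not tested.

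Of the 10 chamber myocardium genes that T-box factors are known to switch on or off, 6 were called lower, none higher and 4 not called. Over all genes tested 15.3% were called lower. The list's median log2 fold change was -1.08, beside 0.0048 for all genes. The atrial natriuretic peptide gene *Nppa*, a classic target that *Tbx5* activates and *Tbx2* represses, fell from 456 ± 113 to 143 ± 22.7 CPM (SD, n = 4 each; log2 change -1.67, adjusted p = 0.000394 by edgeR). *Myh6*, the alpha myosin heavy chain, fell from 3861 ± 747 to 1612 ± 194 CPM (log2 change -1.26, adjusted p = 0.000866 by edgeR). *Nppb*, the neighbouring natriuretic peptide gene, was at 219 ± 69.3 and 322 ± 99.5 CPM (log2 difference 0.56, adjusted p = 0.141 by edgeR). *Nppa*, *Myh6* and *Gja5* of this list are among the genes the study itself named from these samples, so the count is not independent evidence of a direction. Markers of other cells moved with the genotype as well: all 8 erythroid markers were called lower, at a summed 1857 to 4944 CPM in wild-type and 352 to 1098 CPM in Tbx20EH1Mut libraries, with no overlap. Endothelial and endocardial markers (3 of 8 called higher, none lower) summed to 642 to 827 and 833 to 913 CPM. Among them *Tek* (73.4 to 99.6 and 66.9 to 81.5 CPM) and *Nfatc1* (33.8 to 67.9 and 34.9 to 41.5 CPM) did not rise. Neural crest markers (1 of 4 tested called higher, none lower, *Foxd3* below 0.5 CPM in all libraries) summed to 52.2 to 56.8 and 63.7 to 82.5 CPM. Neither sum overlapped between the genotypes. Most of the neural crest sum was *Ets1*, at 49.7 to 54.4 and 62.7 to 67.9 CPM, and every other marker of that list overlapped. The 9 cardiomyocyte markers, 1 of them called lower, overlapped as given above. The part of these cells in the chamber genes and in the lists that follow was not tested.

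**Figure D5:**
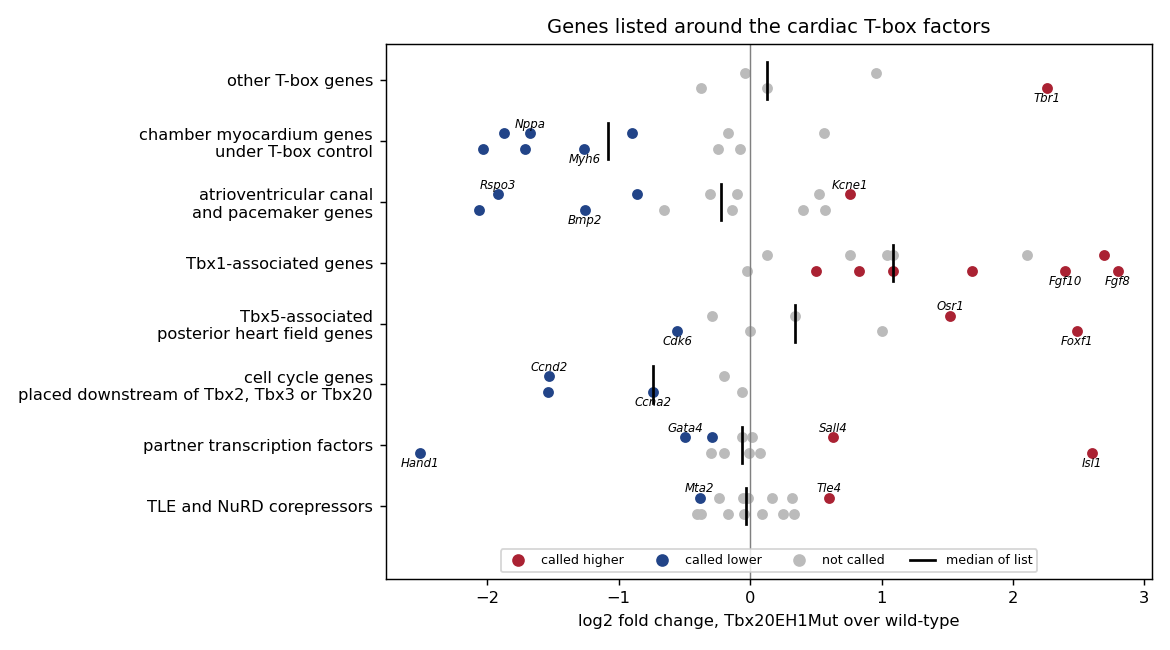
Log2 fold change, Tbx20EH1Mut over wild-type (x axis), of each tested gene in 8 lists set around the cardiac T-box factors (rows). Red genes were called higher, blue genes lower and grey genes not called, and black bars give each list's median. The chamber genes lie mostly to the left, with 6 of 10 called lower, and the *Tbx1*-associated genes mostly to the right, with 7 of 13 called higher. Over all genes tested 15.3% were called lower and 2406 of 17163 higher.

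The element that gave the family its binding motif can be seen at *Nppa*. Of the 10 chamber genes, 8 had a promoter entry in RefSeq (GRCm38.p6), and within the 250 bases before the start, on either strand, AGGTGTGA was found in 1 of them and in 1.12% of all 32851 promoters. The shorter GGTGTG, which lies inside the longer word, was found in 2 of the 8, *Nppa* and *Nppb*, and in 16.3% of all. The first 60 bases of the *Nppa* window, at chr4:148000472-148000531 on the plus strand and 250 to 191 bases before the start, hold the element in reverse, in capitals:
*Nppa*: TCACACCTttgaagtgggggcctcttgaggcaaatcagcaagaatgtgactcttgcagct
Of the 6 T-box genes 3 (*Tbx20*, *Tbx18* and *Tbx1*) had an entry, and neither word was found in them. A match says nothing about binding, and no binding was measured here.

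Among 12 genes of the atrioventricular canal and pacemaker tissue, the domain of *Tbx2* and *Tbx3*, 4 were called lower, 1 higher and 7 not, with a median log2 fold change of -0.22. *Bmp2*, the ligand known to induce *Tbx2* in the canal, fell from 60.01 ± 7.27 to 25.1 ± 6.59 CPM (log2 change -1.26, adjusted p = 0.00132 by edgeR), while *Tbx2* itself had the values given above. *Rspo3*, a secreted Wnt enhancer, fell from 48.2 ± 17.8 to 12.7 ± 6.002 CPM (log2 change -1.92, adjusted p = 0.00303 by edgeR). *Kcne1*, a potassium channel subunit, rose from 10.7 ± 1.97 to 18.1 ± 4.82 CPM (log2 change 0.76, adjusted p = 0.0227 by edgeR). The calcium channel subunit gene *Cacna2d2* was at 231 ± 88.9 and 147 ± 21.2 CPM (log2 difference -0.65, adjusted p = 0.0628 by edgeR).

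Of 13 genes placed with *Tbx1* in the pharynx and outflow tract progenitors, 7 were called higher, none lower and 6 not. Over all genes tested 2406 of 17163 were called higher. The list's median log2 fold change was 1.09. The growth factor genes *Fgf8* and *Fgf10*, known to act with or after *Tbx1*, rose from 11.8 ± 1.48 to 82.1 ± 14.1 CPM (log2 change 2.80, adjusted p = 9.69e-06 by edgeR) and from 8.15 ± 1.62 to 43.0 ± 16.8 CPM (log2 change 2.40, adjusted p = 0.000286 by edgeR), with no overlap between the groups. In contrast to *Tbx1*, *Fgf8* varied little within a genotype. *Mef2c*, a muscle factor of the same progenitors, was at 148 ± 17.1 and 162 ± 61.1 CPM (log2 difference 0.13, adjusted p = 0.689 by edgeR). *Foxa2* of this list is also 1 of the foregut markers, whose summed levels differed as given beside *Tbx1*, and their part in the list's count was not tested.

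Of 7 genes of the posterior heart field linked to *Tbx5*, 2 were called higher, 1 lower and 4 not, with a median of 0.34. *Osr1* and *Foxf1*, both factors of the posterior field and its mesoderm, rose from 7.76 ± 0.794 to 22.2 ± 12.9 CPM (log2 change 1.52, adjusted p = 0.0106 by edgeR) and from 2.81 ± 3.16 to 15.9 ± 11.2 CPM (log2 change 2.49, adjusted p = 0.0266 by edgeR). *Cdk6*, a kinase of the G1 phase, fell from 42.9 ± 9.03 to 29.2 ± 4.14 CPM (log2 change -0.55, adjusted p = 0.0291 by edgeR), and *Cdk2* was at 94.0 ± 6.48 and 77.1 ± 8.61 CPM (log2 difference -0.29, adjusted p = 0.0761 by edgeR). The members that rose and the one that fell thus have unlike roles.

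Of 6 cell cycle genes placed downstream of *Tbx2*, *Tbx3* or *Tbx20*, 5 were tested and 3 of them were called lower, none higher and 2 not. Over all genes tested 15.3% were called lower. The list's median was -0.74. *Ccnd2*, a D cyclin of the G1 phase, fell from 845 ± 122 to 293 ± 62.7 CPM (log2 change -1.53, adjusted p = 0.000370 by edgeR) and the S phase cyclin gene *Ccna2* from 207 ± 9.15 to 124 ± 10.1 CPM (log2 change -0.74, adjusted p = 0.0010 by edgeR). *Mycn*, described as a gene that *Tbx2* and *Tbx20* regulate in proliferating myocardium, was at 105 ± 4.23 and 90.9 ± 12.3 CPM (log2 difference -0.20, adjusted p = 0.204 by edgeR).

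Among 11 partner transcription factors, 2 were called higher, 3 lower and 6 not, with a median of -0.06. *Isl1*, a factor of heart progenitors, rose from 19.8 ± 6.67 to 120.0 ± 39.9 CPM (log2 change 2.60, adjusted p = 0.000378 by edgeR), and *Sall4* from 44.9 ± 5.44 to 69.5 ± 17.8 CPM (log2 change 0.63, adjusted p = 0.0228 by edgeR). *Hand1*, a ventricular factor, fell from 99.6 ± 8.66 to 17.5 ± 2.11 CPM (log2 change -2.51, adjusted p = 5.77e-06 by edgeR). *Gata4*, which binds Tbx5 and Tbx20, fell from 299 ± 44.5 to 212 ± 31.2 CPM (log2 change -0.49, adjusted p = 0.0319 by edgeR), a call that upper-quartile scaling ended (adjusted p = 0.0559 by edgeR). *Nkx2-5*, another partner in that complex, was at 489 ± 56.1 and 469 ± 87.8 CPM (log2 difference -0.06, adjusted p = 0.799 by edgeR), and its sign turned with upper-quartile scaling.

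Of 14 genes of the TLE family and the NuRD complex, corepressors of which some members are known to bind or to be recruited by Tbx20, 1 was called higher, 1 lower and 12 not, with a median of -0.03. *Tle4*, a member of the family that binds the EH1 motif, rose from 20.3 ± 3.32 to 30.8 ± 2.62 CPM (log2 change 0.60, adjusted p = 0.00975 by edgeR). *Mta2*, a NuRD subunit, fell from 124 ± 14.1 to 95.1 ± 11.6 CPM (log2 change -0.38, adjusted p = 0.0448 by edgeR), which upper-quartile scaling ended (adjusted p = 0.0881 by edgeR). *Rbbp7*, a histone-binding subunit, was at 548 ± 76.4 and 683 ± 99.3 CPM (log2 difference 0.32, adjusted p = 0.128 by edgeR).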

How the data were processed

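Per library, the authors deposited a table of raw, unnormalized counts per Ensembl gene, which also lists each gene's exon positions and length. Per the labels, reads were trimmed with Trimmomatic 0.36 and aligned with STAR 2.5.2b to GRCm38, and the counting tool and its strand setting are not given in the sources used here. Of the 49315 genes, 49056 matched a GENCODE M21 record by identifier, and for 91.4% of these both ends were the same.

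The counts were tested with edgeR 4.0.16 in R 4.3.3 (filterByExpr, TMM, glmQLFit and glmQLFTest, genotype as the only term), adjusted by the Benjamini-Hochberg method over 17163 genes and called at 0.05. The steps were tested on simulated counts of 16947 genes. All were given the same dispersion (spread beyond sampling), and only a small share was altered. The measured libraries differ in both, so the rates need not hold for them. In the simulation the steps recovered 44.3% of genes set to differ by 1 on the log2 scale and 90.7% of those set to differ by 1.5. Of the calls, 3.68% fell on genes that had not been altered. A gene not called is in any case not shown to be equal between the genotypes. CPM used the scaled library sizes, and TPM the listed exon lengths with no scaling between libraries, so TPM compares genes and CPM compares genotypes. Single values and ratios were compared by the exact two-sided permutation test over 70 arrangements (scipy 1.17.1). Coding transcripts were translated and aligned with Biopython 1.88 (BLOSUM62), in place of RefSeq proteins. Tables were handled in Python 3.11.15 and drawn with matplotlib 3.10.9.

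The 6 genes and all lists were chosen with earlier results of these data known. Within each list the text names the 2 called higher and the 2 called lower with the lowest adjusted p and the most abundant gene not called, and beside each member the 3 genes nearest in course (1 is not reported here), genes sharing its exons and its neighbours. Other names in lists and markers were added after values were seen. Alternatives were RLE, upper-quartile and total-count scaling, removal of haemoglobin and mitochondrial genes, DESeq2 1.42.0, limma-voom 3.58.1, no filter, a replicate block, a minimum of 10 counts in each library and leaving out each library. No 2 libraries of a genotype were alike within sampling noise. The study's other assays are not analysed here.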

Additional observations from a re-analysis of the deposited data

Results flagged for a closer look

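A single library stood far above the other 3 of its genotype in 2 of the 12 groups of 4 values (6 genes, 2 genotypes) by Dixon's test, the ratio of its gap to the group's whole range. Chance alone marks about 1 in 20 such groups if the values follow a normal distribution, which CPM values need not do. The values were *Tbx1* at 12.7 CPM in wild-type replicate 2, where the other 3 lay between 1.49 and 2.09 CPM, and *Tbx18* at 61.3 CPM in wild-type replicate 1, where the other 3 lay between 16.5 and 23.8 CPM. The first library also had the highest foregut marker sum of the wild-type group (61.5 CPM) and the second the highest proepicardial one (126 CPM). Tbx20EH1Mut replicate 1, at 29.2 CPM of *Tbx1*, did not pass (ratio 0.763).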

How the results depend on the processing

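*Tbx5* was called lower, and *Tbx2* and *Tbx3* were not called and kept their sign, in all alternatives run. *Tbx20* stayed lower in each, but it was not called with upper-quartile scaling (log2 fold change -0.38), nor without wild-type replicate 3 or 4 or Tbx20EH1Mut replicate 1 or 2, nor with wild-type replicate 2 and Tbx20EH1Mut replicate 1 left out together, chosen after seeing the data (-0.36), so that 1 member was called in each of these. With 1 library left out, its log2 fold change ran from -0.55 to -0.36, that of *Tbx2* from 0.18 to 0.37, that of *Tbx3* from -0.29 to -0.02, that of *Tbx1* from 0.18 to 2.67 and that of *Tbx18* from -0.60 to 0.17, the last being the reversal without wild-type replicate 1. Members called ran from 1 to 3, and pairs without overlap from 3 to 9. Over all genes, calls rose from 5024 to 6586 without wild-type replicate 1 and fell to 3061 without wild-type replicate 3, 3001 without wild-type replicate 4 and 3028 without Tbx20EH1Mut replicate 4.

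Equal replicate numbers did not pair the libraries (correlations of same-numbered deviations -0.27, 0.34, 0.06 and 0.06, and no wild-type library correlated best with the Tbx20EH1Mut library of its own number). With the replicate block 3945 genes were called, and *Tbx20* (-0.48) and *Tbx5* (-0.81) remained the 2 members called, and 8 of 15 pairs had all 4 same-numbered differences of 1 sign, for which the exact sign-flip p cannot go below 0.125. In the lists, DESeq2 called 2 other T-box genes (1 by edgeR) and 8 canal and pacemaker genes (5), and upper-quartile scaling 3 partner factors (5). *Cacna2d2* was called with DESeq2 and *Nkx2-5* reversed with upper-quartile scaling (0.021). The causes were not tested. At 49 to 130 counts in 5 of 8 libraries, *Tbx1* was the member least well measured.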
